A study of Mus musculus with 28 samples.

Results

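Cytochrome P450 genes were followed in mouse colon organoids, 3-dimensional cultures of colonic epithelium, before and after the floxed alleles of a colorectal cancer model were recombined. The members were all rows of the count table whose gene symbol was Cyp followed by a digit, which gave 38 of the 13519 genes counted. The annotation lists 131 genes with such names, 100 of them protein coding, and the names outside the table were not analysed here. The 38 members comprised 2 genes of family Cyp1, 20 of Cyp2, 3 of Cyp3, 8 of Cyp4 and 1 each of Cyp20, Cyp26, Cyp27, Cyp39 and Cyp51. Within Cyp2, 6 belonged to Cyp2c, 6 to Cyp2d and 3 to Cyp2j.

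RNA was sequenced from organoids of C57BL/6N mice with 4 genotypes, all of which carried the Villin::CreERT2 transgene and 2 floxed copies of Apc. The Villin promoter restricts the inducible Cre to intestinal epithelium. AC organoids had no further engineered allele, PAC organoids also had 1 copy of Trp53 LSL-R172H, BAC organoids had 1 copy of Braf floxV600E, and BPAC organoids had both. Each culture was exposed to 4-hydroxytamoxifen (4-HT, 3.5 µM), which activates the Cre, or to its ethanol vehicle (EtOH) for 24 h, and RNA was isolated 3 days later. AC came from 1 donor mouse and the other genotypes from 2 donors each, with 2 duplicate cultures per donor and 1 EtOH and 1 4-HT sample per culture, giving 7 donors, 14 cultures and 28 samples. The study states that organoids of each donor were taken at distinct passages for RNA-seq, which may be what the labels call duplicates. P values measure the spread over cultures, which in AC came from a single mouse. Since every 4-HT sample also underwent Apc recombination, the effects of the drug and of Apc loss cannot be told apart, while the comparison of genotypes by Braf allele asks what BRAF V600E added to that change.

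P450 enzymes are heme proteins that insert 1 atom of molecular oxygen into a lipophilic substrate, using electrons that in the endoplasmic reticulum come from P450 reductase (Por) and cytochrome b5. Families Cyp1 to Cyp3 and part of Cyp4 oxidise drugs, plant compounds and other foreign chemicals, and many of them also oxidise arachidonic acid and related fatty acids, whereas families such as Cyp26, Cyp27, Cyp39 and Cyp51 act on retinoic acid, bile acid precursors and sterols. The gut epithelium expresses its own selection of these genes, and differentiated absorptive cells at the surface are the main site of intestinal drug oxidation. Many P450 genes arose by tandem duplication, so neighbouring members can be close copies of each other.

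Library totals ranged from 20577276 to 40068718 counts. Trp53 counts rose with 4-HT by 1.51 and 1.84 on the log2 scale in PAC and BPAC, which carry the LSL allele, against 0.74 and 0.97 in AC and BAC, a difference of 0.82 (adjusted p = 0.00367, edgeR). Counts of Apc and Braf do not show a deleted exon or a point mutation, and Apc counts were higher with 4-HT in all 4 genotypes (log2 change 0.92, 0.67, 0.88 and 0.78 for AC, PAC, BAC and BPAC in turn). The Wnt target genes Lgr5 and Ascl2, which mark stem cells, rose in all 4 genotypes. Epithelial genes were high throughout, with a summed level of 7 epithelial markers of 16979 to 27583 CPM with EtOH, where CPM is the counts-per-million value after TMM scaling (edgeR's scaling of library sizes), and 0 of 5 fibroblast markers and 1 of 5 immune markers were among the genes counted. The 4-HT samples of duplicate 1 of the 2 PAC donors were the closest pair of all samples, with a mean chi-square per gene of 2.38 against 8.53 for the next pair. Both held Xist (636 and 834 counts) and counts of 4 Y-linked genes (1543 to 1822 summed), which no other sample did. The other 11 samples with Xist had 0 to 5 Y-linked counts, and the other 15 samples had 0 to 8 Xist counts. The 2 samples still differed beyond sampling noise and were kept as 2, but they were not clearly separate donors. The counts of members called in PAC and several of the PAC values that change most are given with and without them.

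With EtOH, the P450 genes together took 6355 to 8544 CPM (here relative to the library total without TMM scaling), with a median of 7488 over 14 samples. A single gene, Cyp2c55, which hydroxylates arachidonic acid, held 40.4 to 56.5% of these counts. Scaled to exon length, its median level was 1969 CPM per kb (range 1453 to 2434), above 99.9% of all genes. Cyp4f14, a fatty acid and leukotriene omega-hydroxylase, followed with 465 CPM per kb (350.2 to 547), so that the 2 highest members did not overlap with each other or with the rest. The next members were Cyp2j6, an arachidonic acid epoxygenase (131), Cyp3a13, a drug-oxidising enzyme of the gut (127), Cyp2c65 (124), Cyp51, the lanosterol demethylase of cholesterol synthesis (106), and Cyp2d26 (95.2 CPM per kb). The sample ranges of these 5 genes overlapped with those of their neighbours, so their order was not resolved. At the lower end, 12 members had a median under 1 CPM per kb, down to 0.148 for Cyp3a11, the main inducible Cyp3a enzyme of mouse liver. Cyp2d10 varied 1.5-fold and Cyp20a1 1.38-fold from the lowest to the highest sample, against 11.3-fold for Cyp2s1 and 19.1-fold for Cyp1b1.

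**Figure D1:**
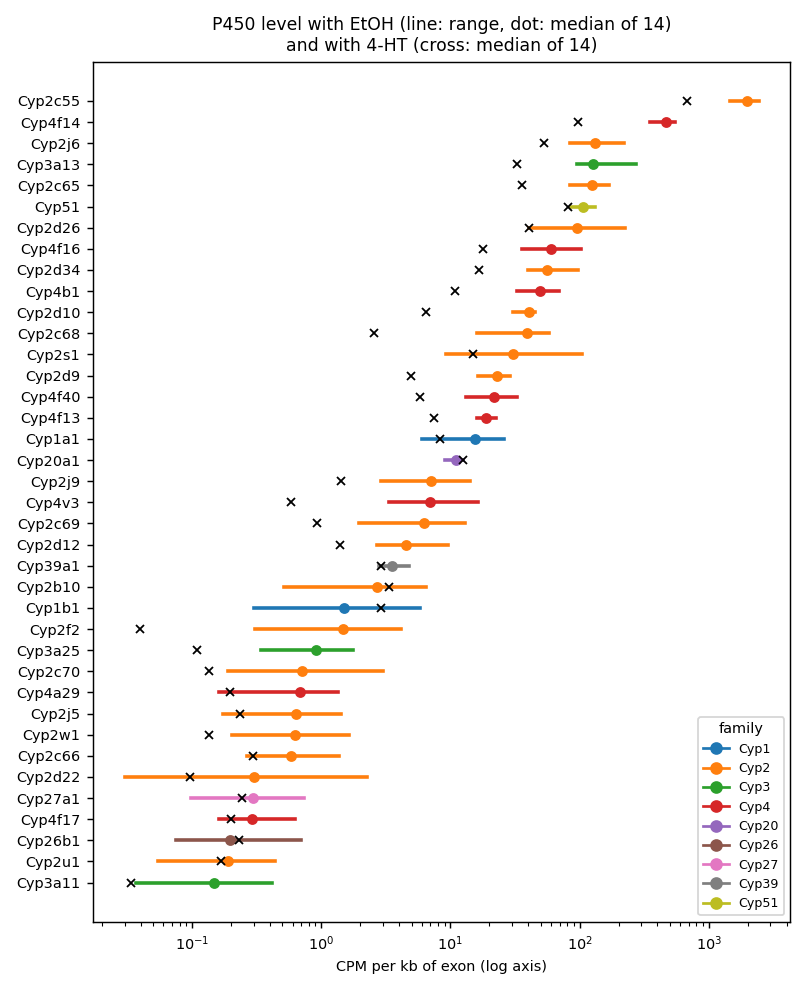
Level of each of the 38 P450 genes in CPM per kb of exon (log axis), where the line spans the lowest to the highest of the 14 EtOH samples, the dot is their median and the cross is the median of the 14 4-HT samples. Cyp2c55 and Cyp4f14 stand above all other members with EtOH, at medians of 1969 and 465, and most crosses lie to the lower side of their dots.

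With 4-HT, 12 to 27 of the 38 P450 genes fell, depending on genotype, and none rose past the threshold, where 3% (AC), 11.2% (PAC), 20.3% (BAC) and 22% (BPAC) of all genes were called higher. The test was edgeR's quasi-likelihood test on the counts, with Benjamini-Hochberg adjustment over all 13519 genes and an adjusted p under 0.01 as the threshold. In AC, 12 of 38 members were lower, where 4.25% of all genes were called lower, and the median log2 change over the members was -0.93. In PAC, 17 were lower (12.2% of all genes), in BAC 25 (21.5%) and in BPAC 27 (23%), with median log2 changes of -1.19, -1.75 and -2.03. The median over all genes lay between -0.04 and 0.01 in these comparisons. At an unadjusted p under 0.05, 1 member was higher in each of AC, PAC and BPAC and 0 in BAC, and neither DESeq2 nor limma-voom called any higher. Of the 38 members, 30 exceeded 1 CPM in at least 2 samples of each treatment and 8 did so only with EtOH, and among those 30 the falls numbered 12, 15, 20 and 21. Together the members dropped to 3709 to 5574 CPM on the same scale in the 6 4-HT samples without the Braf allele. In the 8 with it they had 1421 to 3176 CPM, so these sums overlapped neither with each other nor with EtOH. Cyp2c55 weighed heavily in them. The members other than Cyp2c55 had 1715 to 2459 CPM without and 983 to 1897 CPM with the allele, and these ranges overlapped. With EtOH those members had 3476 to 4627 CPM.

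The AC and PAC calls rested on few cultures. Leaving out either AC culture left 1 AC sample per arm, assumed to vary like the other groups. The AC calls of the members were then lost, although all 12 kept a negative log2 change. Over the whole table, nearly all genes lower in every genotype lost that standing as well. Without the 4-HT samples of the PAC pair described above, 5 members were called lower in PAC, namely Cyp2c65, Cyp2d10, Cyp4f13, Cyp4f16 and Cyp4f40, beside 3.74% of all genes lower and 3.34% higher. The PAC calls of Cyp2c68, Cyp2d9, Cyp2d34, Cyp2f2, Cyp2j6, Cyp2s1, Cyp2w1, Cyp3a13, Cyp4b1, Cyp4f14, Cyp4v3 and Cyp51 were then lost, all with a log2 change still below 0. Fewer members were also called in PAC without PAC donor 1 duplicate 1 or PAC donor 2 duplicate 1 alone. With the culture as a block, 25 members were called in PAC, 22 lower and 3 higher, beside 18.4% and 16.5% of all genes. In all bulk values here, fewer cells of a type and less RNA per cell cannot be told apart.

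**Figure D2:**
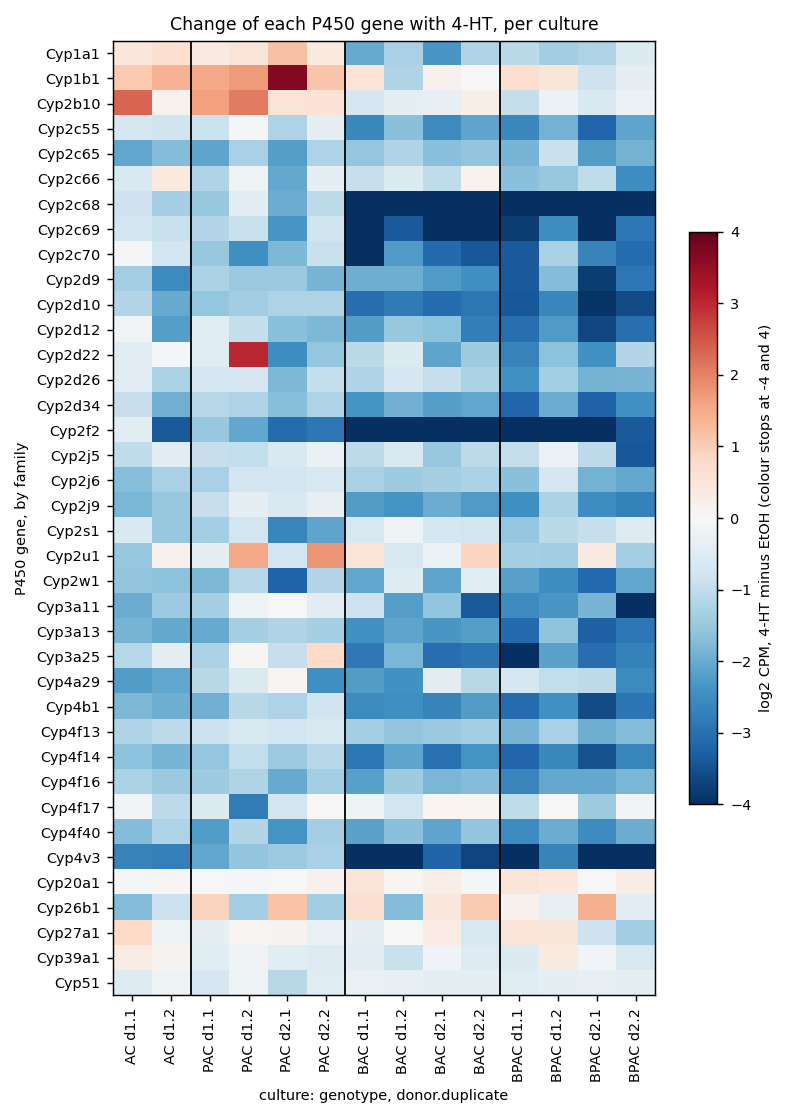
Heat map of the log2 change from EtOH to 4-HT (log2 CPM with a prior count of 2) for the 38 P450 genes in rows, ordered by family, and the 14 cultures in columns, ordered by genotype. Blue marks lower and red higher values with 4-HT, and the BAC and BPAC columns are bluer than the AC and PAC columns for Cyp2c55, Cyp2c68, Cyp2c69 and Cyp3a25, while Cyp20a1 is close to white throughout.

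A set of 11 members was lower in all 4 genotypes, as were 3.85% of all genes. The count was 4 without the PAC pair (Cyp2c65, Cyp2d10, Cyp4f13 and Cyp4f40), 5 without PAC donor 1 duplicate 1, 4 with donors summed (Cyp2c65, Cyp4f13, Cyp4f14 and Cyp4f40), 1 in duplicate 2 alone (Cyp4f14) and 0 without either AC culture. The share of all genes lower in all 4 genotypes was then 2.11%, 2.83%, 3.28% and 0.0296%, and 0.0666% or 0.148% without AC duplicate 1 or 2. The set of 11 spanned Cyp2c (Cyp2c65), Cyp2d (Cyp2d9, Cyp2d10), Cyp2j (Cyp2j6), Cyp3a (Cyp3a13) and 6 of the 8 Cyp4 genes (Cyp4b1, Cyp4f13, Cyp4f14, Cyp4f16, Cyp4f40, Cyp4v3). Cyp4f14 (chr17:32905070-32917342, GRCm38, minus strand) had 847 to 1324 CPM (median 1124) with EtOH, 305 to 550.0 CPM (median 409.7) with 4-HT in the samples without the Braf allele and 76.0 to 244 CPM (median 173) in those with it. The 3 ranges did not overlap, and the log2 changes were -1.74 for AC, -1.26 for PAC, -2.55 for BAC and -2.88 for BPAC. Cyp4f13 and Cyp4f16 of the same cluster fell as well, by 1.13 and 1.37 on the log2 scale in AC and by 1.68 and 2.14 in BPAC. Cyp4f40, singled out after its values were seen, had 33.0 to 80.9 CPM (median 53.7) with EtOH, and with 4-HT 12.4 to 20.7 CPM (median 14.7) without and 8.71 to 17.8 CPM (median 14.3) with the Braf allele, and the 4-HT ranges overlapped. The AC call of Cyp4f16 and that of Cyp2d9 were lost in 15 and 11 of the alternative settings, most often with a culture left out.

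Cyp4b1, which oxidises fatty acids and foreign compounds in epithelia, had 73.2 to 155 CPM (median 112) with EtOH, 22.4 to 52.4 CPM (median 42.6) with 4-HT without the Braf allele and 6.04 to 26.9 CPM (median 17.8) with it, and its log2 changes were -1.85 for AC, -1.30 for PAC, -2.45 for BAC and -2.88 for BPAC. Cyp3a13 (chr5:137892932-137921619, minus strand) had 283 to 804 CPM (median 374), 97.3 to 296 CPM (median 154) and 43.5 to 109 CPM (median 63.7) in the same 3 groups, and its log2 changes were -1.95 for AC, -1.48 for PAC, -2.26 for BAC and -2.73 for BPAC. No 50-base word of its transcripts occurred in another gene, so no read of that length could be placed in a paralog as well. In these groups Cyp2j6 had 302 to 794 CPM (median 473), 234 to 471 CPM (median 278) and 129 to 190.1 CPM (median 161), with log2 changes between -1.63 in BPAC and -0.85 in PAC, and its PAC call was lost in 7 alternative settings. Without the PAC pair, the PAC change of Cyp2j6 was -0.55. In every culture the 4-HT sample had less Cyp4b1, Cyp3a13 and Cyp2j6 than the EtOH sample.

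For 11 members the change with 4-HT was more negative in genotypes with the Braf allele. The contrast of the mean log2 change in BAC and BPAC minus that in AC and PAC called these 11, all lower with the allele, where 3.55% of all genes were called lower and 3.05% higher, and its median over the members was -0.74. They were Cyp1a1, 3 Cyp2c genes (Cyp2c55, Cyp2c68, Cyp2c69), Cyp2d10, Cyp2f2, Cyp2j9, Cyp3a25, Cyp4f13, Cyp4f14 and Cyp4v3. For 12 members the log2 changes of the 8 cultures with the allele all lay below those of the 6 without it, as for 4.47% of all genes, and no member showed the opposite order (4.9% of all genes). These 12 were Cyp1a1, Cyp1b1, Cyp2c55, Cyp2c68, Cyp2c69, Cyp2d10, Cyp2d34, Cyp2f2, Cyp3a25, Cyp4b1, Cyp4f13 and Cyp4f14.

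The EtOH and 4-HT samples of a culture deviated together from their group means, and with the culture as a block the same contrast called 18 members, the 11 above together with Cyp1b1, Cyp2b10, Cyp2c70, Cyp2d12, Cyp2d34, Cyp3a11 and Cyp4b1. Under the block 7.48% of all genes were called lower in the contrast and 6.51% higher, and those 7 members were called neither with donors summed nor without the PAC pair. Leaving out either AC culture left a single AC sample per arm, and most of the 11 calls were then lost. Those of Cyp2c68, Cyp2d10 and Cyp3a25 were kept in both cases. With the counts of each donor summed, 7 were called, all lower, beside 1.63% of all genes lower and 2.18% higher, and Cyp2c69, Cyp2f2, Cyp2j9 and Cyp4v3 were not. Without the PAC pair, 10 were called, all lower, beside 3.04% of all genes lower and 2.83% higher, and Cyp2f2 was not. The direction of each of the 11 stayed the same in all of these settings.

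**Figure D3:**
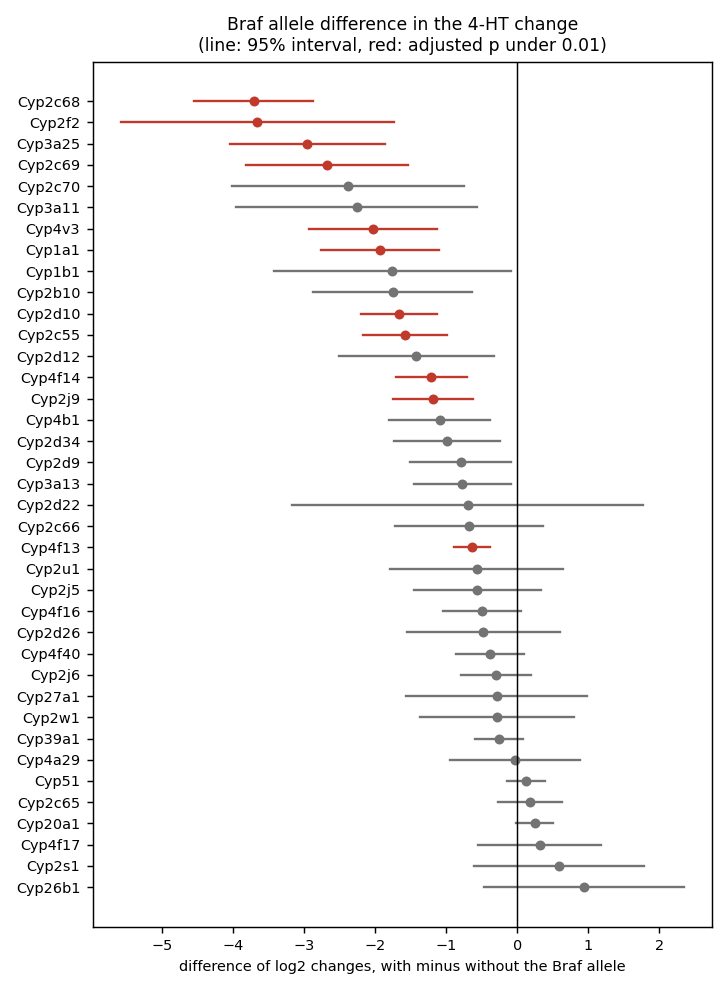
Difference in the log2 4-HT change by Braf allele (BAC and BPAC minus AC and PAC) for the 38 P450 genes, with 95% confidence intervals from the edgeR fit. Red points passed the threshold of an adjusted p under 0.01 and grey points did not. The 11 red points are all below 0, from -3.71 for Cyp2c68 to -0.64 for Cyp4f13, and Cyp2c65 lies at 0.18 with an interval that includes 0.

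The Cyp2c genes, which oxidise arachidonic acid and drugs, lie side by side on chromosome 19 and behaved differently from each other. Read assignment matters here, since Cyp2c68 and Cyp2c69 shared 43.3 and 54.3% of their 50-base words with another gene, and Cyp2c65 and Cyp2c66 20.6 and 19.5%, against 0.514% for Cyp2c55. The coding sequences of Cyp2c68 and Cyp2c69 were 96.5% identical over 1476 bases, with a longest identical run of 143 bases. Those of Cyp2c65 and Cyp2c66 were 96.3% identical over 1473 bases, with a run of 230, and Cyp2c55 and Cyp2c65 were 75.2% identical with a run of 38. The first 90 coding bases of the reference transcripts (GENCODE, GRCm38) are printed 5′ to 3′ to show how alike the copies are, with the bases that differ within a pair in capitals.
Cyp2c68: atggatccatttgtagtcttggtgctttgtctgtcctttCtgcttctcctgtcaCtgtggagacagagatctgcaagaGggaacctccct
Cyp2c69: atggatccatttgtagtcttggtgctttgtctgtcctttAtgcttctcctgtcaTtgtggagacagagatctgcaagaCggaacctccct
Cyp2c65: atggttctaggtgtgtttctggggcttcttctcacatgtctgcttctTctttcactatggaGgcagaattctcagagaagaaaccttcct
Cyp2c66: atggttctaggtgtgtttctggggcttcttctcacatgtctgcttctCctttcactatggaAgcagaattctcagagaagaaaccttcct
The first pair differed at 3 and the second at 2 of these bases. The same stretch of Cyp2c55 against Cyp2c65 differed at 26.
Cyp2c55: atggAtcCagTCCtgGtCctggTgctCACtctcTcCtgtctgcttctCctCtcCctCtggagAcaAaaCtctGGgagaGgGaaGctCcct
Cyp2c65: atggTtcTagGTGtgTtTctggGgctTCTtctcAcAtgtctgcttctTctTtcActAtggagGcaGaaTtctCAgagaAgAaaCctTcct
Few 50-base words of Cyp2c55 thus occurred elsewhere, whereas about as many words of Cyp2c68 and Cyp2c69 occurred in another gene as in that gene alone.

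Cyp2c55 (chr19:39007019-39042693, plus strand), the most abundant member, had 2898 to 4856 CPM (median 3929) with EtOH. With 4-HT it had 1657 to 3059 CPM (median 2134) in the 6 samples without the Braf allele and 405 to 1496 CPM (median 853) in the 8 with it, so the allele groups did not overlap. Its log2 change was -0.74 ± 0.36 (SE) in AC and -0.59 ± 0.25 in PAC, neither past the threshold, with -0.25 in PAC without the PAC pair, and -2.15 ± 0.26 in BAC and -2.34 ± 0.27 in BPAC, where it fell 4.43-fold and 5.06-fold. The difference was -1.58 ± 0.29 on the log2 scale (adjusted p = 6.35e-04, edgeR), and the adjusted p was 0.0113 without AC duplicate 1. The change per culture was -3.16 to -1.66 with and -1.23 to -0.05 without the allele. Its exons overlap those of Gm23800 on the opposite strand by 64 bases, and whether the counting used strand is not given in the sources used here.

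Cyp2c68 (chr19:39688834-39741054, minus strand) showed the largest difference of the 11 in the fit of all samples. Without the PAC pair that of Cyp2f2 was larger (-3.88, against -3.83 for Cyp2c68), so their order was not resolved. Cyp2c68 had 27.8 to 99.4 CPM (median 67.1) with EtOH, 11.5 to 30.8 CPM (median 19.9) with 4-HT without the Braf allele and 0.952 to 4.48 CPM (median 2.70) with it, 3 ranges of which the last 2 did not overlap. The single 4-HT samples had 23.8 and 11.5 CPM in AC, 19.0, 20.8, 17.7 and 30.8 in PAC, 1.29, 4.48, 2.12 and 3.46 in BAC and 3.07, 4.41, 0.952 and 2.33 in BPAC. Log2 changes were -1.01 for AC, -1.29 for PAC, -5.05 for BAC and -4.68 for BPAC, and the difference was -3.71 ± 0.41 (adjusted p = 4.43e-06, edgeR). Cyp2c69 followed the same order, with 3.36 to 22.1 CPM (median 10.7) with EtOH, 1.76 to 4.65 CPM (median 3.73) with 4-HT without and 0.309 to 2.00 CPM (median 1.00) with the allele. Its EtOH samples had 3.36 to 19.3 CPM without and 5.80 to 22.1 CPM with the allele. Its difference was -2.68 ± 0.55 (adjusted p = 0.00208, edgeR), which lost its call without AC duplicate 1 (adjusted p = 0.0208) or AC duplicate 2 (0.0123). Because the 2 genes share words, their counts were also summed, which gave -3.49 ± 0.43 (adjusted p = 1.33e-05, edgeR). Part of this lay in the EtOH levels of the sum, which differed by 0.87 with the allele without passing (adjusted p = 0.140, edgeR). The 4-HT levels of the sum differed by -2.62 (adjusted p = 3.90e-07, edgeR). The sum does not cover all sharing, since 19.6% of the words of Cyp2c68 and 18.8% of those of Cyp2c69 occurred in each other, and the rest of the shared words in genes outside the table, mainly Cyp2c40 and Cyp2c67.

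Cyp2c65 (chr19:39061015-39093944, plus strand), next to Cyp2c55, fell in all 4 genotypes. It had 163 to 324 CPM (median 239.8) with EtOH, 61.3 to 112 CPM (median 70.9) with 4-HT without the Braf allele and 51.1 to 88.2 CPM (median 68.4) with it, and the 4-HT ranges overlapped. Log2 changes were -1.91 for AC, -1.68 for PAC, -1.51 for BAC and -1.72 for BPAC, and the Braf difference was 0.18 with a 95% interval of -0.27 to 0.63, which includes 0 and spans changes of under 1 on either side. Summed with Cyp2c66, whose own level was 0.517 to 2.65 CPM (median 1.13) with EtOH, the difference was 0.17. Within single cultures, the change of Cyp2c55 minus that of Cyp2c65 was -1.04 to -0.23 with the allele and 0.87 to 1.38 without it. This pair was chosen after its values were seen and was not tested. Cyp2c70, which makes muricholic bile acids in mouse liver, was near the detection limit with 0.376 to 5.99 CPM (median 1.39) in EtOH samples and passed the threshold in BAC and BPAC (log2 -3.54 and -3.0), where 4-HT samples had 0 to 0.509 CPM, so these fitted values depend on the prior count.

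**Figure D4:**
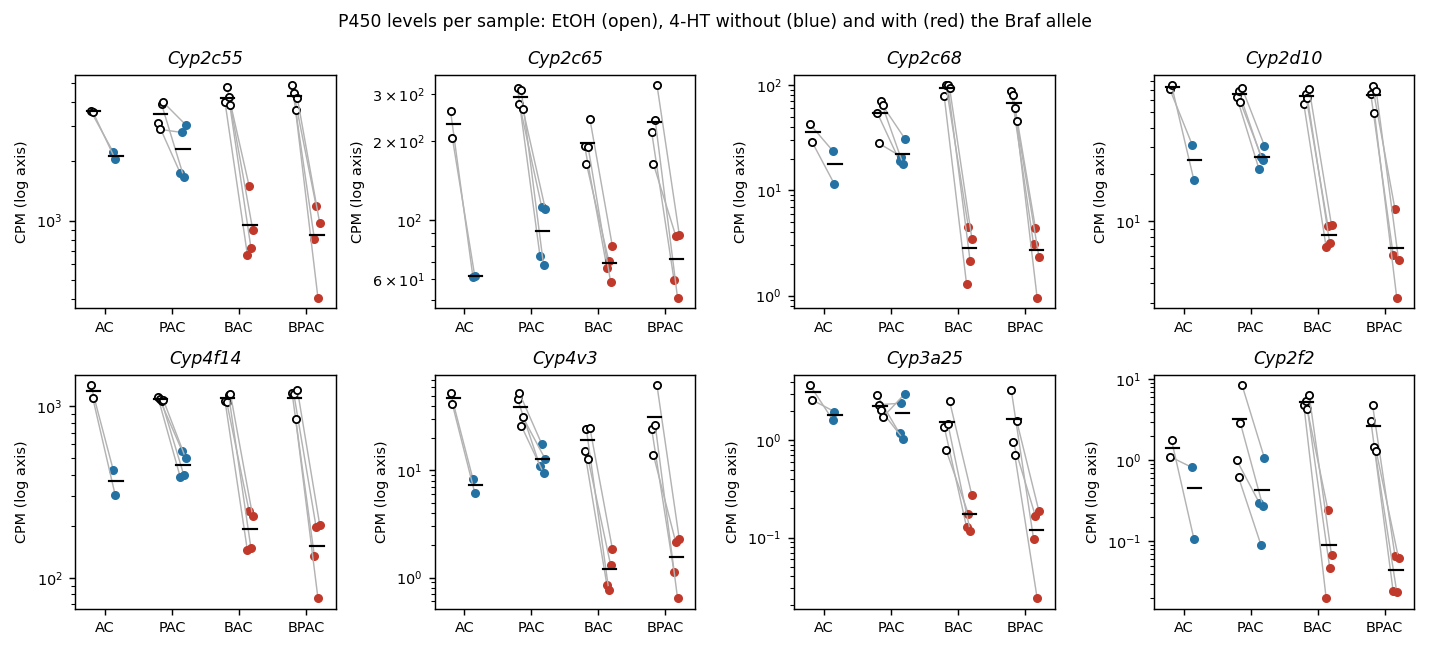
Level in CPM (log axis, values under 0.02 drawn at 0.02) of Cyp2c55, Cyp2c65, Cyp2c68, Cyp2d10, Cyp4f14, Cyp4v3, Cyp3a25 and Cyp2f2 in each of the 28 samples, by genotype and treatment, 1 point per sample (open with EtOH, filled with 4-HT), a grey line per culture and a bar at the mean. In the panels of Cyp2c55, Cyp2c68, Cyp2d10, Cyp4f14, Cyp4v3 and Cyp3a25 every 4-HT sample of BAC and BPAC lies below those of AC and PAC, while in those of Cyp2c65 and Cyp2f2 they overlap.

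The Cyp2d genes, a tandem cluster on chromosome 15 whose human relative oxidises many drugs, all had lower fitted levels with 4-HT. Of the 6, 2 (AC), 3 (PAC), 4 (BAC) and 5 (BPAC) passed the threshold. Cyp2d10 (chr15:82402846-82407195, minus strand) had 49.8 to 74.8 CPM (median 67.3) with EtOH, 18.4 to 31.1 CPM (median 25.4) with 4-HT without the Braf allele and 3.24 to 12 CPM (median 7.04) with it, with no overlap between the 3 ranges. It changed by -1.55 for AC, -1.34 for PAC, -2.96 for BAC and -3.26 for BPAC, and the Braf difference was -1.67 ± 0.26 (adjusted p = 1.66e-04, edgeR). Its close copy Cyp2d9, which in liver hydroxylates testosterone, had 43.6 to 77.4 CPM (median 61.1), 10.7 to 25.3 CPM (median 24.1) and 3.07 to 17.5 CPM (median 11.1) in the same groups, and its difference of -0.80 ± 0.35 did not pass (adjusted p = 0.126, edgeR). Their coding sequences were 92.5% identical, and they shared 21.8 (Cyp2d9) and 35.8% (Cyp2d10) of 50-base words with other genes, so reads may have been exchanged between them. Cyp2d26 was the highest of the cluster per length and Cyp2d22 the lowest. Cyp2d22 ranged from 0 to 8.84 CPM (median 1.18) with EtOH and passed in no genotype without the block (log2 -0.47 for AC, -1.21 for PAC, -1.16 for BAC and -1.92 for BPAC).

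The 3 Cyp3a genes on chromosome 5, which encode drug- and steroid-oxidising enzymes, all fell in BAC and BPAC, and Cyp3a13 also passed the threshold in AC and PAC. Cyp3a25 (chr5:145977194-146009618, minus strand) was a low-level gene with 0.705 to 3.67 CPM (median 1.88) with EtOH. It stayed at 1.04 to 3.01 CPM (median 1.81) with 4-HT without the Braf allele and had 0.0238 to 0.272 CPM (median 0.148) with it, which was 1 to 8 counts per sample. Its log2 changes of -0.80 in AC and -0.24 in PAC did not pass the threshold, and the latter was 0.27 without the PAC pair, while those of -3.15 in BAC and -3.80 in BPAC did, and the difference was -2.96 ± 0.53 (adjusted p = 5.61e-04, edgeR). Of its 50-base words, 26.8% occurred in another gene, mostly Cyp3a59, which was not among the genes counted. For Cyp3a13, in contrast, the Braf difference was -0.78 with an interval of -1.46 to -0.09, and the call was not made (adjusted p = 0.122, edgeR). Cyp3a11 had 0.188 to 2.10 CPM (median 0.755) with EtOH and 0 to 0.189 CPM with 4-HT in the samples with the allele. Its BAC call was lost with limma-voom (adjusted p = 0.0170). It was also lost with library size alone (adjusted p = 0.0128, edgeR) and without the PAC pair (adjusted p = 0.0124, edgeR).

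In family Cyp4, whose enzymes hydroxylate the far end of fatty acids and eicosanoids, Cyp4v3 (chr8:45304944-45333216, minus strand), the mouse counterpart of a gene mutated in Bietti crystalline dystrophy, had the largest fitted fall in BAC and BPAC. It had 12.7 to 62.1 CPM (median 26.4) with EtOH, 6.22 to 17.7 CPM (median 10.2) with 4-HT without the Braf allele and 0.642 to 2.27 CPM (median 1.23) with it, and no 4-HT sample with the allele reached the lowest without it. Log2 changes were -2.70 for AC, -1.62 for PAC, -4.0 for BAC and -4.39 for BPAC. The Braf difference was -2.03 ± 0.44 (adjusted p = 0.00279, edgeR), and the adjusted p was 0.0263 and 0.0208 without AC duplicate 1 or 2 in turn and 0.0222 with donors summed. Cyp4f14 and Cyp4f13 had differences of -1.21 ± 0.24 (adjusted p = 0.00167) and -0.64 ± 0.12 (adjusted p = 9.31e-04, both edgeR). Leaving out an AC culture ended the call of Cyp4f14 (adjusted p = 0.0219 and 0.0108) and, without duplicate 2, that of Cyp4f13 (adjusted p = 0.0149). Cyp4f16, -0.50 (-1.05 to 0.05), and Cyp4b1, -1.10 (-1.81 to -0.38), were not called without the block, under which Cyp4b1 passed at -1.16 (adjusted p = 2.75e-04, edgeR), while its adjusted p was 0.0559 with donors summed and 0.0414 without the PAC pair. Cyp4v3 exons overlap those of Gm45753 on the same strand by 313 bases.

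Of the remaining Cyp2 genes, Cyp2f2, known from the bioactivation of naphthalene in lung, and Cyp2j9 also differed by Braf allele. Cyp2f2 had 0.617 to 8.40 CPM (median 2.99) with EtOH. Its 4-HT counts were 26 and 3 (AC), 10, 2, 8 and 31 (PAC), 0, 7, 2 and 2 (BAC) and 1, 2, 1 and 2 (BPAC), too few for a firm fold, and samples of AC and PAC differed widely among themselves. The fitted difference of -3.66 ± 0.93 (adjusted p = 0.00941, edgeR) lost its call in 16 settings, among them the omission of either AC culture (adjusted p = 0.309 and 0.0155) and of the PAC pair (0.0108). Cyp2j9, an arachidonic acid hydroxylase, had 9.65 to 47.2 CPM (median 23.5) with EtOH, 13.0 to 31.2 CPM (median 15.7) with 4-HT without the allele and 3.71 to 4.82 CPM (median 4.16) with it, and its difference was -1.19 ± 0.27 (adjusted p = 0.00440, edgeR), and 0.0245 and 0.0409 without AC duplicate 1 or 2. The EtOH level of Cyp2j9 was lower with the allele, without passing the threshold, by 0.80 on the log2 scale (adjusted p = 0.0788, edgeR), the smallest adjusted p of any member in that comparison and the 1 member that DESeq2 called there. The PAC change of Cyp2j9 was -0.18 without the PAC pair. For Cyp2j6 the Braf difference was -0.30 with an interval of -0.80 to 0.19.

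Cyp1a1 and Cyp1b1 oxidise polycyclic aromatic hydrocarbons and estrogens and are the classic targets of the aryl hydrocarbon receptor. Cyp1a1 (chr9:57687928-57703824, plus strand) had 51.2 and 47.1 CPM with EtOH and 68.4 and 72.7 with 4-HT in AC. In PAC it had 31.1, 39, 17.1 and 71.7 with EtOH and 39.6, 55.4, 38.6 and 94.9 with 4-HT. BAC samples had 59.3, 58.7, 66.9 and 31.6 CPM of Cyp1a1 with EtOH and 14.6, 24.0, 13.2 and 13.7 with 4-HT, and BPAC samples 47.4, 30.8, 34.8 and 16.9 and 22.4, 11.8, 14.8 and 11.6. All 6 cultures without the Braf allele thus had more Cyp1a1 with 4-HT and all 8 with the allele had less. The log2 changes were 0.52 for AC, 0.52 for PAC, -1.73 for BAC and -1.10 for BPAC, of which that in BAC passed the threshold, and the difference was -1.93 ± 0.40 (adjusted p = 0.00223, edgeR), with 0.0210 and 0.0248 as adjusted p without AC duplicate 1 or 2. Under the culture block, Cyp1a1 was called higher in PAC (0.60, adjusted p = 0.00880, edgeR) and lower in BPAC (-1.07, adjusted p = 5.98e-05, edgeR). With neither the block nor the PAC pair, the PAC change of Cyp1a1 was 0.92. Without the block, the PAC change of Cyp1a1 had an adjusted p of 0.152 with donors summed and 0.117 without the PAC pair.

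Cyp1b1 varied widely with EtOH, over 1.76 to 33.7 CPM (median 8.70), and with 4-HT had 18.8 to 72.2 CPM (median 27.7) without and 4.74 to 23.0 CPM (median 7.21) with the Braf allele. It was not called in any genotype (log2 1.32 for AC, 1.49 for PAC, -0.35 for BAC and -0.36 for BPAC) nor in the Braf contrast (-1.76 ± 0.81, adjusted p = 0.150, edgeR). The change per culture was 1.05 to 3.67 without and -1.20 to 0.68 with the allele, with no overlap. Under the block it was called higher in PAC (1.85, adjusted p = 2.59e-04, edgeR) and lower in the Braf contrast (-1.67, adjusted p = 0.00357, edgeR). Without the block, the adjusted p of Cyp1b1 was 0.188 in PAC and 0.231 in the Braf contrast with donors summed, and 0.108 and 0.124 without the PAC pair, to which the culture with the highest change (3.67) belongs. Cyp2b10, the drug-inducible target of the constitutive androstane receptor in liver, had 1.09 to 13.6 CPM (median 5.66) with EtOH, 4.86 to 22.4 CPM (median 8.40) with 4-HT without and 2.58 to 8.21 CPM (median 6.84) with the allele. Its Braf difference was -1.76 ± 0.54 (adjusted p = 0.0303, edgeR), and under the block -1.64 (adjusted p = 0.00200, edgeR), while the adjusted p was 0.0771 with donors summed and 0.0734 without the PAC pair. The changes per culture of Cyp2b10 overlapped, at 0.14 to 2.33 without and -0.96 to 0.25 with the allele. The block called Cyp2b10 higher in PAC as well (1.13, adjusted p = 0.00557, edgeR), where the fits without the block gave an adjusted p of 0.163 with donors summed and a change of 0.59 (adjusted p = 0.528) without the PAC pair. Between 4-HT samples, Cyp1a1 and Cyp1b1 were lower with the allele by 2.01 and 2.23 on the log2 scale, both past the threshold, and with donors summed Cyp1b1 no longer passed (-2.19, adjusted p = 0.0189, edgeR).

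Cyp2s1, an epithelial P450 found outside the liver, was the 1 member called higher with 4-HT in genotypes with the Braf allele. It had 45.6 to 517 CPM (median 151) with EtOH. The 4-HT samples had 55.7 and 15.9 CPM in AC, 55.9, 29.9, 58.7 and 27.1 in PAC, 128, 91.2, 137 and 154 in BAC and 80.5, 246, 67.8 and 110.5 in BPAC, so that every sample with the allele exceeded every one without it. The 4-HT levels differed by 1.69 ± 0.44 on the log2 scale (adjusted p = 0.00326, edgeR), and with donors summed by 1.62 (adjusted p = 0.0114), which did not pass. The EtOH levels differed by 1.11 ± 0.42 in the same direction (adjusted p = 0.192), and the contrast of changes gave 0.59 ± 0.58 (adjusted p = 0.545, edgeR). In all 14 cultures Cyp2s1 was lower with 4-HT than with EtOH, and it passed the threshold in PAC (-1.97 ± 0.53), a call lost in 7 alternative settings. Its exons overlap those of Gm26707 on the opposite strand by 260 bases.

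**Figure D5:**
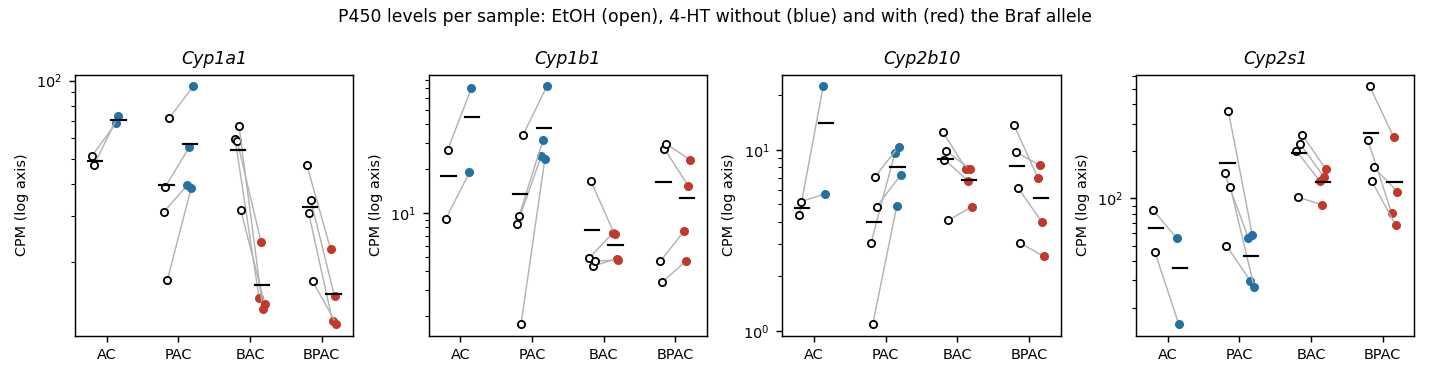
Level in CPM (log axis) of Cyp1a1, Cyp1b1, Cyp2b10 and Cyp2s1 in each of the 28 samples by genotype and treatment, 1 point per sample (open with EtOH, filled with 4-HT), a grey line per culture and a bar at the mean. With 4-HT, Cyp1a1 lies at 38.6 CPM or more in AC and PAC and at 24.0 or less in BAC and BPAC, and Cyp2s1 shows the opposite order.

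Members of the sterol, bile acid and retinoid families had few calls. Cyp51 (chr5:4081145-4104746, minus strand) had 382 to 581 CPM (median 468) with EtOH, 267 to 359 CPM (median 302) with 4-HT without the Braf allele and 320.0 to 439 CPM (median 371) with it. It was lower with 4-HT in 14 of 14 cultures and passed the threshold in PAC (-0.63 ± 0.12) and BPAC (-0.39 ± 0.12), the latter lost in 6 alternative settings, among them library size alone and donors summed. Cyp20a1, an orphan P450, stayed between 20.7 and 30.8 CPM in all 28 samples, with log2 changes of -0.02 for AC, 0.01 for PAC, 0.19 for BAC and 0.30 for BPAC. Cyp39a1, an oxysterol hydroxylase, had 8.52 to 14.6 CPM (median 10.8) with EtOH, and its call in BAC (-0.47 ± 0.15, adjusted p = 0.00982, edgeR) was lost in 18 alternative settings. Cyp27a1, a mitochondrial sterol hydroxylase, and Cyp26b1, which degrades retinoic acid, were low (0.648 and 1.05 CPM in the median EtOH sample) and passed in no genotype. Cyp26b1 had 95% intervals of -2.98 to 0.65 in AC and -1.18 to 1.26 in BPAC, which do not exclude log2 changes of over 1 in size. Cyp2u1, a fatty acid hydroxylase, had an interval of -1.16 to 0.98 in BAC. Cyp2w1, which is known from fetal gut and colon tumours, was low too, with 0.310 to 2.49 CPM (median 0.948) with EtOH, and fell in PAC (-1.99), BAC (-1.58) and BPAC (-2.93), where the BAC call was lost without either BAC duplicate 1 culture (adjusted p = 0.0613 and 0.0619, edgeR).

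Of the remaining members, Cyp2d26, Cyp2j5 and Cyp2c66 passed the threshold in BPAC (-1.77, -1.5 and -1.84) and in no other genotype without the block. The BPAC calls of Cyp2j5 and Cyp2c66 were lost with donors summed, where the changes were -1.43 and -1.82. With the culture block Cyp2d26 also passed in PAC (-1.03, adjusted p = 3.18e-04, edgeR) and BAC (-1.02, adjusted p = 1.51e-04, edgeR), Cyp2d12 in PAC (-1.25), Cyp2c69, Cyp2c70 and Cyp2j9 in PAC (-1.35, -1.66 and -0.56), Cyp2d34 and Cyp4a29 in AC (-1.42 and -2.33), Cyp51 in BAC (-0.35) and Cyp2d22 and Cyp2s1 in BPAC (-2.08 and -1.02). These calls were made under the block, and none of them held with donors summed (adjusted p = 0.0304 to 0.138, edgeR) or in the fit without the PAC pair (adjusted p = 0.0148 to 0.679, edgeR). The BAC call of Cyp39a1 was lost under the block (adjusted p = 0.0109, edgeR). Cyp2d12 and Cyp2d34 fell in BAC (-2.03 and -2.13) and BPAC (-2.79 and -2.53), and Cyp2d34 in PAC as well (-1.36). With donors summed the BAC call of Cyp2d12 was lost, at a change of -1.99. Cyp4a29, of a subfamily that hydroxylates medium-chain fatty acids, had 0.248 to 2.06 CPM (median 1.04) with EtOH and fell in BAC (-1.90) and BPAC (-1.69). Its BPAC call was lost with limma-voom (adjusted p = 0.0145) and with library size alone (adjusted p = 0.0121, edgeR). Cyp4f17 had log2 changes of -0.55 for AC, -1.07 for PAC, -0.28 for BAC and -0.71 for BPAC and was not called. Without the block, 8 of the 38 members were called in no genotype, namely Cyp1b1, Cyp2b10, Cyp2d22, Cyp2u1, Cyp4f17, Cyp20a1, Cyp26b1 and Cyp27a1.

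For the Trp53 and EtOH comparisons edgeR called no member. The Trp53 allele, compared as PAC and BPAC minus AC and BAC, was associated with a different response to 4-HT in 0 members (0.0074% of all genes called lower and 0.0074% higher, edgeR), and 0 members had an unadjusted p under 0.05. With EtOH, 0 members differed by Braf allele in edgeR (0.0222% of all genes higher and 0.0074% lower), while 7 higher and 5 lower members had an unadjusted p under 0.05, and DESeq2 called Cyp2j9 lower. With 4-HT, 18 members were lower (14.6% of all genes) and Cyp2s1 was higher (15.6% of all genes). Fewer members were called with donors summed, which leaves 1 AC sample per arm, and Cyp2s1 differed by 1.62 there.

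Partners and regulators of P450 enzymes were read from lists chosen with earlier results of these data known. Beside the list counts, 4.25% (AC), 12.2% (PAC), 21.5% (BAC) and 23% (BPAC) of all genes were called lower. Called higher were 3%, 11.2%, 20.3% and 22% in the same order. In the Braf contrast 3.55% of all genes were lower and 3.05% higher. Of 10 electron donor genes, 3 fell in each of the 4 genotypes, namely Por (-0.53, -0.35, -0.50 and -0.82 for AC, PAC, BAC and BPAC in turn), the reductase of microsomal P450 enzymes, Cyb5a (-0.73, -0.55, -1.01 and -0.90), which encodes cytochrome b5, and Pgrmc1, a heme-binding P450 partner (-0.60 to -0.71). Up to 2 rose, with Cyb5r1 at 0.34 in BAC, and the median log2 change of the list was -0.20 (AC), -0.20 (PAC), -0.15 (BAC) and -0.09 (BPAC), beside 0.01, -0.03, -0.04 and -0.04 over all genes tested. None of the 10 passed the threshold in the Braf contrast. Among 12 genes of heme synthesis and breakdown, Alas1, the rate-limiting enzyme of synthesis, fell in BAC (-0.79) and BPAC (-0.89), while Cpox (0.69) and Urod (0.67), later steps of the pathway, rose in BAC. The counts of this list were 0 higher and 0 lower in AC, 2 and 0 in PAC, 3 and 1 in BAC, and 4 and 2 in BPAC, and its medians 0.11, 0.15, 0.24 and 0.19.

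Of 19 transcription factor genes that act on P450 promoters, 4, 7, 9 and 9 fell for AC, PAC, BAC and BPAC in turn. The shares of all genes called lower were 4.25%, 12.2%, 21.5% and 23%. In the same order 0, 1, 1 and 0 factors rose, beside 3%, 11.2%, 20.3% and 22% of all genes. The medians were -0.28, -0.39, -0.31 and -0.48. Nr1i2, which encodes the pregnane X receptor, the sensor that induces Cyp3a genes, fell by 0.76 in AC and 0.81 in BPAC (log2) and did not differ past the threshold by Braf allele (0.06). Nr1h3 (liver X receptor alpha) and Nr1h4 (the bile acid receptor FXR) fell in all 4 genotypes, by 1.66 and 1.46 in AC and 1.89 and 1.84 in BPAC. Ppara, the fatty acid sensor that induces Cyp4 genes, and Vdr, the vitamin D receptor, were the 2 factors that fell further with the Braf allele (-1.5 and -0.78, adjusted p = 1.66e-04 and 0.00740, edgeR). Ahr did not pass the threshold in any genotype (0.03 to -0.22), and its target and repressor Ahrr fell in BAC (-2.87). Hnf4a, a factor of hepatic and intestinal P450 genes, had log2 changes of -0.43, -0.43, -0.31 and -0.48, with calls in PAC and BPAC.

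Enzymes that share substrates with the members were counted in the same way. Beside these counts, 4.25% (AC), 12.2% (PAC), 21.5% (BAC) and 23% (BPAC) of all genes were called lower. Called higher were 3%, 11.2%, 20.3% and 22% in the same order, and 3.55% were lower and 3.05% higher in the Braf contrast. Ephx2, the soluble epoxide hydrolase that clears epoxides made by Cyp2c and Cyp2j enzymes, was the 1 of 2 epoxide hydrolases counted that fell, by 1.59, 1.48, 2.44 and 2.67 for AC, PAC, BAC and BPAC in turn, and it fell further with the Braf allele (-1.02, adjusted p = 0.00614, edgeR). Of 18 sterol synthesis genes beside Cyp51, 0, 13, 3 and 5 fell and none rose in the 4 genotypes (medians -0.28, -0.45, -0.17 and -0.25), and in the Braf contrast Idi1 was higher (0.49). Of 10 retinoid genes, 2, 5, 4 and 5 fell, among them Aldh1a1, a maker of retinoic acid (-2.22 in AC and -3.44 in BPAC), and Rbp2 (-2.03 and -2.80), and 0, 2, 1 and 0 rose (medians -0.64, -0.54, -0.92 and -1.38). In the Braf contrast 3 retinoid genes were lower, Aldh1a1 (-1.52), Dhrs3 (-1.21), which returns retinal to retinol, and Rdh10 (-0.68), which makes retinal.

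Markers of absorptive colonocytes moved with the P450 genes. Beside the marker counts, 4.25% (AC), 12.2% (PAC), 21.5% (BAC) and 23% (BPAC) of all genes were called lower. Called higher were 3%, 11.2%, 20.3% and 22% in the same order. In the Braf contrast 3.55% of all genes were lower. Of 12 such markers, 6 (AC), 7 (PAC), 11 (BAC) and 12 (BPAC) fell, and 3 fell further with the Braf allele, namely Guca2a (-1.40) and Guca2b (-1.65), which encode guanylin and uroguanylin, and Cdhr5 (-0.81), a brush border cadherin. The median over the list was -1.18 (AC), -1.19 (PAC), -1.94 (BAC) and -2.49 (BPAC). Their summed level was 18558 to 28737 CPM with EtOH, 7328 to 12836 with 4-HT without the allele and 3643 to 8642 with it, and the last 2 ranges overlapped. All 6 stem cell markers were measured, and 3, 6, 5 and 6 of them rose, with summed levels of 323 to 557, 876 to 1087 and 782 to 1071 CPM in the same groups. Among 8 goblet markers 1, 2, 3 and 3 rose and 0, 0, 3 and 3 fell, none of 4 enteroendocrine markers passed, and 2 of 4 tuft markers fell in BAC and 1 in BPAC. Hepatocyte markers were low, with Alb, Ttr and Apoa1 of 5 counted and a summed level of 10.3 to 127 CPM with EtOH, and 2 of 6 small intestinal enterocyte markers were counted, Fabp2 and Sis (summed level 258 to 611 CPM). Of 5 fibroblast markers none was counted, and the 1 immune marker of 5 counted, Cd3e, was at 0.107 to 2.04 CPM with EtOH. The part of these shifts in the P450 changes was not tested.

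Promoters of the members were read from RefSeq (GRCm38.p6), where 32 of the 38 matched by symbol, as the 250 bases before each start. The HNF4-type motif CAAAGTNCA occurred on either strand in 6 of these 32, namely Cyp2c65, Cyp2c68, Cyp2c69, Cyp2c70, Cyp2d26 and Cyp3a11, and in 1.19% of 32851 promoters. Thus 4 of the 6 carriers belonged to Cyp2c. The motif stood both in Cyp2c68 and Cyp2c69, which fell further with the Braf allele, and in Cyp2c65, which did not differ past the threshold. The GCGTG core of the aryl hydrocarbon receptor occurred in 11 of 32 members and 28.2% of all promoters, the CDX2-type motif TTTATG in 3 of 32 and 10.8%, and TATAAA in 11 of 32 and 12.4%. The 90 bases from 120 to 31 before the start are printed 5′ to 3′ on the gene's strand, for 3 Cyp2c genes that carry the HNF4-type motif and for Cyp1a1, with motif matches in capitals. These windows hold no annotated exon base.
Cyp2c65 (chr19:39060886-39060975, plus strand): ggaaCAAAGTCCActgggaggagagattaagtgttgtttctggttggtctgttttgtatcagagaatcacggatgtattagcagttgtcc
Cyp2c68 (chr19:39741132-39741221, minus strand): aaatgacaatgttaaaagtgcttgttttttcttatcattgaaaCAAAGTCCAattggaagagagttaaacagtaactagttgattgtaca
Cyp2c69 (chr19:39886800-39886889, minus strand): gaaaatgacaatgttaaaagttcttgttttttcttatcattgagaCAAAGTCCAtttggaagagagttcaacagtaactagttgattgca
Cyp1a1 (chr9:57697493-57697582, plus strand): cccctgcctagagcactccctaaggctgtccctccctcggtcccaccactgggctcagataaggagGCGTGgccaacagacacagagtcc
The HNF4-type match lay 116 bases before the start in Cyp2c65, 77 in Cyp2c68 and 75 in Cyp2c69, and the GCGTG core 54 bases before that of Cyp1a1. A match is a description of these letters and not a measured binding site.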

How the data were processed

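Colon organoid RNA of 28 samples was measured by RNA sequencing, and the authors deposited raw counts per gene. Per the submitters' processing notes, reads were trimmed (Trimmomatic 0.39) and aligned to GRCm38 (STAR 2.5.2b). The counting program and its strand setting are not given in the sources used here. A symbol was found for 13479 of 13519 Ensembl identifiers (GENCODE M21).

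Counts were tested with edgeR 4.0.16 (R 4.3.3) after TMM scaling, with 8 groups of genotype and treatment in 1 quasi-likelihood fit. The test was checked on counts simulated independently for each sample. These held no shared donor or culture effect, so the check does not cover the dependence between duplicates or within cultures. Errors are standard errors of the fit and intervals are at 95%. Sample totals of 20577276 to 40068718 counts limited the values of members near 1 CPM. The EtOH and 4-HT samples of a culture come from the same donor and duplicate. Their deviations from the group means correlated in every culture (Pearson's r of 0.245 to 0.532 across genes). In AC, with 2 cultures, the deviations mirror each other, so both give the same r. Whether the donor, the duplicate or the culture is what they share was not tested, and the culture was used as the block in an alternative fit. Alternatives were limma-voom (limma 3.58.1), DESeq2 1.42.0, other scalings, filters and thresholds, summed paralogs (members sharing at least 10 or 20% of 50-base words of GENCODE transcripts), single duplicates, summed donors, each culture left out and omission of the PAC pair. The 10% limit and a count over members above 1 CPM in both treatments were chosen after seeing the data.

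The members, the lists and the rules were chosen with earlier results of these data known. Members were named by rule as the 8 with the largest difference among those called in the Braf contrast, the 6 with the largest mean change among those lower in all genotypes, the highest member of each family, and members with textbook roles, 27 in all. Those that the results turn on are given with levels. The other 11 (Cyp2c66, Cyp2c70, Cyp2d12, Cyp2d26, Cyp2d34, Cyp2j5, Cyp2j9, Cyp3a11, Cyp4a29, Cyp4f17 and Cyp4f40) fell outside this rule, and their values were singled out after they were seen.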

Additional observations from a re-analysis of the deposited data

Results flagged for a closer look

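For 11 members the change with 4-HT differed by Braf allele, by edgeR's test of the difference. On the log2 scale the differences were -1.93 for Cyp1a1, -1.58 for Cyp2c55, -3.71 for Cyp2c68, -2.68 for Cyp2c69, -1.67 for Cyp2d10, -3.66 for Cyp2f2, -1.19 for Cyp2j9, -2.96 for Cyp3a25, -0.64 for Cyp4f13, -1.21 for Cyp4f14 and -2.03 for Cyp4v3. In 4 of 81 sets of 4 cultures, 1 culture lay far from the other 3 (Dixon's test), which chance gives in about 1 of 20. Cyp2s1 had a log2 change of -0.16 in BAC donor 1 duplicate 2, beside -0.73 to -0.65 in the other BAC cultures. Cyp3a25 stood at -1.82 in the same culture, beside -3.05 to -2.87. Cyp2u1 had 0.35 in BPAC donor 2 duplicate 1, beside -1.38 to -1.33. Cyp3a13 had -2.03 in PAC donor 1 duplicate 1, beside -1.32 to -1.21, and the 4-HT sample of that culture belongs to the PAC pair that was not clearly separate.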

How the results depend on the processing

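With each culture left out in turn, the members called numbered 0 to 13 in AC, 10 to 17 in PAC, 21 to 26 in BAC, 21 to 28 in BPAC, 4 to 11 in the Braf contrast and 15 to 21 in the 4-HT level comparison. Fits of duplicate 2 alone called 1 member in AC, 2 in PAC, 16 in BAC, 1 in the Braf contrast and 10 in the 4-HT level comparison. With the counts of each donor summed, 5 were called in AC, 11 in PAC and 7 in the Braf contrast, and without the PAC pair 5 in PAC. With the culture as a replicate block, 18 were called in the Braf contrast, 14 in AC, 25 in PAC (3 of them higher, Cyp1a1, Cyp1b1 and Cyp2b10), 26 in BAC and 30 in BPAC. Over the whole table the block called 880 genes higher and 1011 lower in the Braf contrast (413 and 480 without it), 1007 and 1216 in AC, 2234 and 2483 in PAC, 3414 and 3603 in BAC, and 3609 and 3749 in BPAC. The share of all genes called moved with the setting as well. Without the PAC pair, for example, 3.74% of all genes were called lower in PAC, against 12.2% with it. Member counts given without such a share cannot be compared between settings. DESeq2 called 1 member in the EtOH level comparison, Cyp2j9. Scaling by library size alone moved the median log2 change over all genes to 0.23 (AC), 0.20 (PAC), 0.13 (BAC) and 0.18 (BPAC). The genes called higher and lower over the whole table were then 1511 and 302 in AC (406 and 574 with TMM), 3388 and 737 in PAC (1511 and 1655), 3881 and 2066 in BAC (2751 and 2909), and 4331 and 2038 in BPAC (2979 and 3110). Under that scaling 11, 15, 22 and 26 members were called in these genotypes, 1 of them higher, Cyp20a1 in BPAC (0.51). Of 92 calls of single members in the 4 genotypes and the Braf contrast, 36 held in every setting run for them (up to 29, since summed paralogs have no value of their own), 56 were lost in at least 1, and 0 reversed. The causes of these losses were not tested. Leaving out cultures, duplicates or the PAC pair changed both the number of samples and the cultures compared. At 1 CPM or less, counting error limits the fold of a member.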
